A study of Mus musculus with 8 samples.

Results

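Germline genes are those whose known work lies in making eggs and sperm: pairing and recombining chromosomes in meiosis, silencing transposons through piRNAs, and building germ cells of the testis. This account covers 40 such genes, taken from a fixed list of symbols, out of 55078 gene symbols in the expression table, and each of the 40 had a row. In most body cells these genes are held silent by DNA methylation of their promoters and by a repressor complex in which MGA with MAX and E2F6 bind the promoter. Mouse embryonic stem cells in self-renewing culture are known to transcribe part of this programme without entering meiosis. In germ cells, DAZL and STRA8 act before and at meiotic entry, cohesin and synaptonemal complex proteins then build the paired chromosome, and PIWI proteins with Tudor proteins process piRNAs.

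The study sequenced messenger RNA of 46C, a mouse embryonic stem cell line that carries a fluorescent reporter at Sox1, and of derivatives labelled as Dip2c knockouts, during neural induction. The 8 libraries form 2 series. In the KSR series, day 0 cells of both labels came from stem cell medium and day 4 cells from KSR induction medium. In the N2B27 series, day 0 cells again came from stem cell medium and day 6 cells from N2B27 induction medium. By the labels all cells share the 46C background, the labels name no other allele or agent, and whether the knockout is 1 clone is not given in the sources used here. Each combination of label, series and day was read by 1 library, so the 4 day 0 and the 4 differentiated libraries stand as replicates of a state that differ in label and series, and p-values measure only the spread between these libraries.

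Values are FPKM, which are per transcript length and so allow levels to be compared between genes. FPKM summed to between 509344 and 637117 per library, and 13451 to 14335 genes reached 1 FPKM. Absolute read depth is unknown; the spacing of the lowest values put the relative depth of the libraries at 0.973 to 1.16 times that of the WT-labelled KSR day 0 library. The label was not borne out by the targeted gene: Dip2c read 2.74 to 5.78 FPKM in WT-labelled libraries, and the KO-labelled library of each condition held 76.6% to 106% of its WT-labelled partner. A gene of the Y chromosome, Eif2s3y, read 7.03 to 14.9 FPKM in the WT-labelled libraries, and its value in all KO-labelled ones was 0, so that gene separated the libraries by label. Which stretch of Dip2c was removed is not given in the sources used here. Cells are called WT-labelled and KO-labelled throughout. The columns of the KO-labelled KSR pair were placed by their names, which carry the knockout and the day and no N2B27, although the sample descriptions give the same names to other samples; the main counts of calls on differentiation are given without this pair too.

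In stem cells at day 0 the list was read broadly and unevenly. Between 26 and 28 of the 40 genes reached 1 FPKM in each day 0 library, against 9 to 14 in each differentiated library. Over all genes, 13451 to 13735 reached 1 FPKM in a day 0 library and 13902 to 14335 in a differentiated library. By mean at day 0, 13 genes stood at 5 FPKM or above, 16 between 1 and 5, and 11 below 1. The 40 genes together summed to 344 to 595 FPKM at day 0 and to 55.7 to 62.1 FPKM after differentiation, and without Tuba3a, the most abundant, to 250.2 to 372 FPKM and 50.6 to 60.7 FPKM.

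Tuba3a, an alpha tubulin gene of the testis, led the day 0 levels at 185 ± 73.4 FPKM (SD, n = 4 libraries). Next came Tex19.1, which restrains retrotransposons in germ cells, at 41.0 ± 5.83 FPKM, Syce2 at 40.9 ± 12.6 FPKM and Stag3 at 40.3 ± 7.05 FPKM, and these neighbours did not differ beyond their spread. Dazl followed at 28.7 ± 9.34 FPKM, Tdrd12 at 20.1 ± 2.58 FPKM, Sycp3 at 16.8 ± 2.98 FPKM, Stra8 at 16.2 ± 13.3 FPKM and Rec8 at 15.2 ± 1.73 FPKM. After differentiation the order of means was led by Syce2 at 13.1 ± 2.65 FPKM, Rec8 at 11.6 ± 3.91 FPKM and Stag3 at 6.09 ± 3.21 FPKM, and 12 of the 40 genes had a mean of 1 FPKM or more in differentiated cells.

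**Figure D1:**
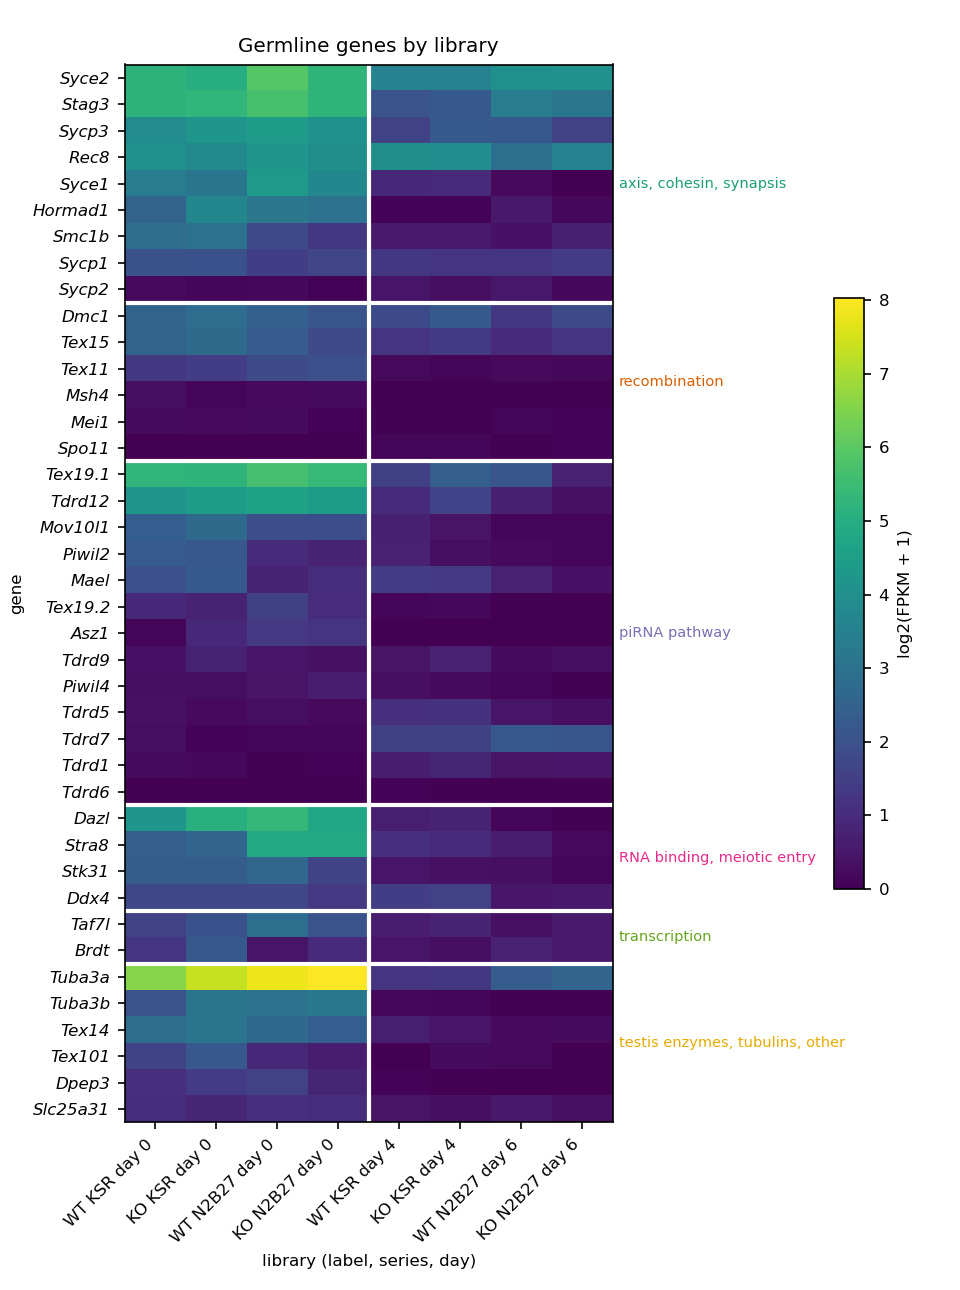
Level of each of the 40 germline genes as log2 of FPKM plus 1 (colour) in the 8 libraries (columns; label, series and day), grouped by role. The 4 day 0 columns are brighter for most genes, 26 to 28 genes reaching 1 FPKM there against 9 to 14 in the differentiated columns, while Rec8 stays bright and Tdrd7 shows the opposite order. Over all genes, 13451 to 13735 reached 1 FPKM at day 0 and 13902 to 14335 after differentiation.

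Promoters are shown for the 6 genes with the largest change on differentiation among those with a promoter in the RefSeq table, and then for the 3 genes with the highest day 0 level that did not pass that test, so that the letters of both kinds can be set side by side. Each runs 5′ to 3′ on the gene's strand from 250 bases before to 50 bases after the RefSeq start (GRCm38.p6). Capitals mark CACGTG, the E-box bound by MGA with MAX, or TCCCGC and its reverse complement GCGGGA, the core of the E2F6 site, searched on both strands; these motifs do not overlap one another in the stretches printed. The windows are chr6:125286032-125286331 (minus strand) for Tuba3a, chr17:50293571-50293870 (minus) for Dazl, chr11:121145893-121146192 (plus) for Tex19.1, chr7:35537666-35537965 (minus) for Tdrd12, chr7:140787805-140788104 (minus) for Syce1, chr6:34920698-34920997 (plus) for Stra8, chr14:55617916-55618215 (plus) for Rec8, chr3:102936051-102936350 (minus) for Sycp1 and chr1:166238695-166238994 (minus) for Mael.
Tuba3a: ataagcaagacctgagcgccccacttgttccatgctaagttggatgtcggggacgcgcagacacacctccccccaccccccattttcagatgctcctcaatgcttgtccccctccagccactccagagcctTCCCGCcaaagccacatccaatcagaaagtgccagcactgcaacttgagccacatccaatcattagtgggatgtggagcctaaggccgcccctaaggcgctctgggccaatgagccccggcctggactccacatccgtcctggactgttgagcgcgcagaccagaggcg
Dazl: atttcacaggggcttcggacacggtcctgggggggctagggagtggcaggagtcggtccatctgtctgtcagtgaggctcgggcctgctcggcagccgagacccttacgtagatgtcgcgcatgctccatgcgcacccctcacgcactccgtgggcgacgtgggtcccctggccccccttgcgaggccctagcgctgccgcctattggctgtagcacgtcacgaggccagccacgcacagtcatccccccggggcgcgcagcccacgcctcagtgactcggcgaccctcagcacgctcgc
Tex19.1: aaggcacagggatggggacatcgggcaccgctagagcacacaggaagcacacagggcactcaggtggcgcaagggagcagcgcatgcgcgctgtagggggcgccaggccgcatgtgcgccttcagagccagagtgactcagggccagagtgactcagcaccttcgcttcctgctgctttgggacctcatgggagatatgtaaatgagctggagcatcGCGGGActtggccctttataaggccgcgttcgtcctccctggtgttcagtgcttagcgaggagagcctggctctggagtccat
Tdrd12: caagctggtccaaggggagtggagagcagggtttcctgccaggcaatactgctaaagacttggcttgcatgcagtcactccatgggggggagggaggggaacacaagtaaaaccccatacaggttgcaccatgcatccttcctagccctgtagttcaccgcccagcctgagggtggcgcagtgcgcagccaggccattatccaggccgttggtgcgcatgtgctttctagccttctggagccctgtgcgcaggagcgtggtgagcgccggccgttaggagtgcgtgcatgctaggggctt
Syce1: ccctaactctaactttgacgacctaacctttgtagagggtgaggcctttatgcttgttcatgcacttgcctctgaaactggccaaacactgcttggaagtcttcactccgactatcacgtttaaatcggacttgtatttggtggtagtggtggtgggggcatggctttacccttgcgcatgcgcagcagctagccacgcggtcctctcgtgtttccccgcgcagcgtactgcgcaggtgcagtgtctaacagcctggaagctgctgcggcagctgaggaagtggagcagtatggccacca
Stra8: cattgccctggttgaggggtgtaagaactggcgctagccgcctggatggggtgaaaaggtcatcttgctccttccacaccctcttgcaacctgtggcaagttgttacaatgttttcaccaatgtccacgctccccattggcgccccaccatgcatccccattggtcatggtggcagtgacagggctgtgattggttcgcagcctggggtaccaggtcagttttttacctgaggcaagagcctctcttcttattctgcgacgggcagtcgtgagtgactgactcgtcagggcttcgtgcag
Rec8: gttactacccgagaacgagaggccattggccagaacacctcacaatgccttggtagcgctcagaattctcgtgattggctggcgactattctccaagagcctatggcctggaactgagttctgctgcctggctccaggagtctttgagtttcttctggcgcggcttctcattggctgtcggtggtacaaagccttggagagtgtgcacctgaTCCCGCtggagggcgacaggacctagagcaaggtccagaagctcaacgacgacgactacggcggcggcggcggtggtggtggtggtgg
Sycp1: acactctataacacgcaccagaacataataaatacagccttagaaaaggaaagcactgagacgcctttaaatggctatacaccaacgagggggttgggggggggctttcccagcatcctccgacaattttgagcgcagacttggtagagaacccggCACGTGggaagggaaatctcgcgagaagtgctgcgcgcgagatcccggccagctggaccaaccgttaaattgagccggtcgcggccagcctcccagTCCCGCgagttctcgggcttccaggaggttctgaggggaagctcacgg
Mael: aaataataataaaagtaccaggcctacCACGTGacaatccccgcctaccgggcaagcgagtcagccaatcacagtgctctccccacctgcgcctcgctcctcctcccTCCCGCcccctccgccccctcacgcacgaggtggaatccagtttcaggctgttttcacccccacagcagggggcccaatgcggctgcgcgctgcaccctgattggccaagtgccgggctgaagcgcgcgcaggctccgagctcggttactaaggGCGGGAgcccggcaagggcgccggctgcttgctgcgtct

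Among the 6 genes with the largest changes, Tuba3a and Tex19.1 hold 1 E2F6 core each, and Dazl, Tdrd12, Syce1 and Stra8 hold no match in these windows. Of the 3 genes that did not pass, Sycp1 holds 1 of each motif, Mael 1 E-box and 2 E2F6 cores, and Rec8 1 E2F6 core. Observed over expected CpG of the 6 was 0.472 for Tuba3a, 0.795 for Dazl, 0.575 for Tex19.1, 0.408 for Tdrd12, 0.625 for Syce1 and 0.430 for Stra8. Of the 3 it was 0.716 for Rec8, 0.874 for Sycp1 and 0.780 for Mael.

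A promoter was listed for 35 of the 40 genes, all but Piwil2, Tex11, Tex15, Spo11 and Tdrd6. CACGTG stood in 14 of the 35 (40%), against 8.09% of all 27025 genes with a promoter in the table, and the E2F6 core in 16 (45.7%), against 22.0%. At least 1 of these motifs stood in 22 (62.9%), against 27.5% of all genes, and both in 8 (22.9%), against 2.65%. Observed over expected CpG of at least 0.6 was found in 23 of the 35 (65.7%) and in 38.4% of all genes. The 22 with a promoter that passed the test for lower levels on differentiation held the E-box in 8 cases and the E2F6 core in 11. The other 13 held them in 6 and 5 cases, so both motifs occurred in both sets. These 13 include Tdrd7, called higher, and genes too low to be tested, such as Msh4, Tdrd1 and Piwil4. The motifs and genes were taken from knowledge of this programme, and a match is a description of the letters, not of binding.

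On differentiation, most of the list fell. Genes with at least 1 FPKM in at least 2 libraries were tested (15967), which held 32 of the 40, on log2 of FPKM plus 1 with limma over the 4 pairs of a day 0 library and the differentiated library of the same label and series. In this test 26 of the 32 passed, where 54.1% of all genes tested did: 25 as lower, where 23.6% of all genes did, and 1 as higher, where 30.4% did, at a Benjamini-Hochberg adjusted p under 0.05 over all genes. Without the KO-labelled KSR pair 23 of the list passed, where 20.4% of all genes tested passed as lower and 25.8% as higher. The median change of the 32 was −1.51 on the log2 scale and that of all genes tested 0.06. Of the 6 others, Ddx4, Mael, Sycp1, Rec8 and Brdt had negative values and Tdrd5 a positive one. Of the 32 genes, 16 had a differentiated mean under 10% of the day 0 mean, and 26 one under 50%. Many of them, such as Dazl, Hormad1 and Tex14, reached 1 FPKM in no differentiated library and passed the filter through day 0 alone. The filter thus favours such falls, and the shares of all genes under these limits were not taken.

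Every day 0 library lay above every differentiated library for 25 of the 32 (21.9% of all 17214 genes that reached 1 FPKM in a library behaved so), and below for 1 (29.2% of all genes). Without the KO-labelled KSR pair these counts were 26 and 1, against 25.4% and 31.7% of all genes. The same libraries showed naive stem cell markers falling in their summed FPKM from 1211 to 1535 at day 0 to 11.8 to 39.3, and 6 neural progenitor markers rising from 6.70 to 12.3 to 375 to 869, so fewer cells of a type and less RNA per cell cannot be told apart. Because log2 of FPKM plus 1 compresses low values, changes of genes below about 1 FPKM are understated.

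**Figure D2:**
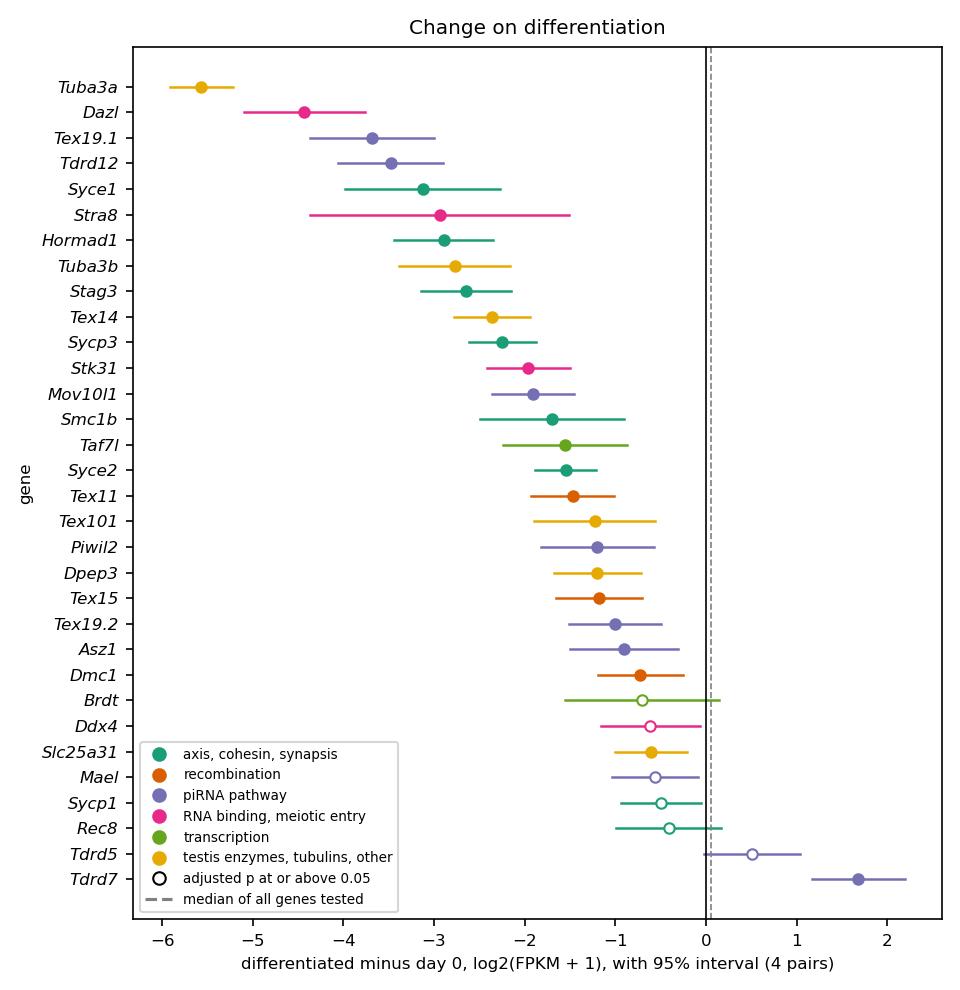
Change of the 32 tested germline genes from day 0 to differentiated cells (x axis, difference in log2 of FPKM plus 1; points, fitted value over 4 pairs; bars, 95% interval; colour, role; open points, adjusted p of 0.05 or above). Values run from −5.57 for Tuba3a to 1.68 for Tdrd7, and the dashed line at 0.06 is the median of all genes tested.

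In the sentences that follow, the 4 values of a state are always given in the order KSR series WT-labelled, KSR series KO-labelled, N2B27 series WT-labelled, N2B27 series KO-labelled. A difference is in log2 of FPKM plus 1, differentiated minus day 0, with its standard error, and adjusted p-values are those of limma.

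Genes of the meiotic chromosome axis, cohesin and synapsis gave 6 lower calls among 8 tested of 9, where 23.6% of all genes tested passed as lower. Syce1, a central element protein of the synaptonemal complex, read 9.35, 7.61, 19.3 and 12.4 FPKM at day 0 and 0.873, 0.929, 0.161 and 0 FPKM after differentiation. Its day 0 libraries all lay above its differentiated ones, and it fell by 3.13 ± 0.36 (adjusted p = 0.000604). Hormad1, an axis protein that monitors synapsis, read 4.94, 11.9, 8.14 and 6.94 FPKM at day 0 and 0.0582, 0.0557, 0.457 and 0.115 FPKM after differentiation and fell by 2.89 ± 0.23 (adjusted p = 0.000135), with no overlap between states. Stag3, a cohesin subunit found in meiosis, read 35.5, 37.7, 50.8 and 37.4 FPKM at day 0 and 3.14, 3.64, 9.68 and 7.89 FPKM after differentiation. It fell by 2.65 ± 0.21 (adjusted p = 0.000131), in all 4 pairs, and stayed higher in the N2B27 than in the KSR differentiated libraries.

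Syce2, the partner of SYCE1 in the central element, read 35.8, 31.2, 59.4 and 37.3 FPKM at day 0 and 10.8, 10.9, 15.2 and 15.6 FPKM after differentiation; it fell by 1.55 ± 0.14 (adjusted p = 0.000235), and had the highest mean of the list in differentiated cells, although Rec8 stood above it in both KSR day 4 libraries. Sycp3, of the axial element, read 13.6, 17.4, 20.7 and 15.7 FPKM at day 0 and 1.91, 3.83, 3.64 and 1.94 FPKM after differentiation and fell by 2.25 ± 0.15 (adjusted p = 7.33e-05). Of the 1264 exon bases of Sycp3, 660 overlap exons of Chpt1 on the opposite strand, and strand use in the counting is not given in the sources used here; Chpt1 read 8.67 to 11.3 FPKM at day 0 and 4.59 to 8.11 FPKM after differentiation, so reads of the pair may be mixed. Smc1b, the meiotic form of a cohesin arm, read 6.32, 7.22, 2.57 and 1.46 FPKM at day 0 and 0.481, 0.496, 0.326 and 0.635 FPKM after differentiation and fell by 1.696 ± 0.33 (adjusted p = 0.00570); its day 0 level in the N2B27 series was below that in the KSR series.

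Rec8 and Sycp1 were the tested members of this group without a call. Rec8, the meiotic kleisin that holds sister chromatids together, read 15.2, 13.1, 17.4 and 14.99 FPKM at day 0 and 15.03, 14.3, 6.54 and 10.6 FPKM after differentiation. The KSR day 4 libraries stood within the range of day 0, and the N2B27 day 6 libraries below all of them, and the difference was −0.41 ± 0.24 (adjusted p = 0.189). Sycp1, the transverse filament of the synaptonemal complex, read 3.02, 3.05, 1.81 and 2.19 FPKM at day 0 and 1.46, 1.38, 1.38 and 1.66 FPKM after differentiation. All its day 0 libraries lay above all differentiated ones, with a difference of −0.49 ± 0.18 (adjusted p = 0.0591). Sycp2, also of the axial element, stayed below 1 FPKM in all libraries, at a mean of 0.103 FPKM at day 0 and 0.292 FPKM after differentiation.

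All 3 tested genes of meiotic recombination, of 6, passed as lower, where 23.6% of all genes tested did. Dmc1, the recombinase of meiotic strand exchange, read 5.003, 6.35, 4.65 and 3.34 FPKM at day 0 and 2.47, 3.79, 1.46 and 2.53 FPKM after differentiation. It was lower in all 4 pairs and fell by 0.73 ± 0.19 (adjusted p = 0.0193), but its states overlapped, the KO-labelled KSR day 4 library standing above the KO-labelled N2B27 day 0 library. Tex15, needed in mouse for repair of meiotic breaks, read 4.83, 5.87, 4.08 and 2.55 FPKM at day 0 and 1.37, 1.58, 0.975 and 1.3002 FPKM after differentiation and fell by 1.18 ± 0.20 (adjusted p = 0.00304). Tex11, an X-linked crossover gene, read 1.45, 1.74, 2.57 and 2.92 FPKM at day 0 and 0.1398, 0.0691, 0.151 and 0.129 FPKM after differentiation and fell by 1.47 ± 0.19 (adjusted p = 0.00104); in both genes the states did not overlap. Spo11, whose product cuts the DNA to begin recombination, was at most 0.0970 FPKM in any library. Mei1 and Msh4, which act in break formation and crossover, stayed below 1 FPKM. Their means were 0.139 and 0.166 FPKM at day 0 and 0.0488 and 0.0178 FPKM after differentiation.

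The piRNA and transposon silencing genes split: of 9 tested of 13, 6 passed as lower and 1 as higher, against 23.6% and 30.4% of all genes tested. Tex19.1 read 38.1, 36.1, 49.3 and 40.5 FPKM at day 0 and 1.89, 4.35, 3.35 and 0.655 FPKM after differentiation. Its lowest day 0 library was above its highest differentiated library, and it fell by 3.68 ± 0.28 (adjusted p = 0.000121). Tdrd12, a Tudor helicase needed for secondary piRNAs in mouse, read 17.2, 20.01, 23.5 and 19.6 FPKM at day 0 and 0.942, 2.098, 0.615 and 0.286 FPKM after differentiation and fell by 3.48 ± 0.24 (adjusted p = 8.30e-05). Mov10l1, the helicase that feeds piRNA precursors into processing, read 4.22, 5.89, 2.78 and 2.83 FPKM at day 0 and 0.634, 0.346, 0.105 and 0.0685 FPKM after differentiation and fell by 1.91 ± 0.19 (adjusted p = 0.000331).

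Piwil2, the PIWI protein also known as MILI, read 3.99, 3.51, 0.969 and 0.688 FPKM at day 0 and 0.678, 0.269, 0.1398 and 0.112 FPKM after differentiation. It fell by 1.198 ± 0.26 (adjusted p = 0.00831), and its N2B27 day 0 libraries were close to its WT-labelled KSR day 4 library. Tex19.2, the paralogue of Tex19.1, read 0.908, 0.7298, 1.899 and 1.02 FPKM at day 0 and 0.0731, 0.117, 0 and 0 FPKM after differentiation, and fell by 1.003 ± 0.21 (adjusted p = 0.00739); reads of these paralogues may have been shared in the counting. Asz1, a scaffold of the piRNA machinery at mitochondria, read 0.0816, 0.912, 1.54 and 1.32 FPKM at day 0 and was listed at 0 in all 4 differentiated libraries, where it passed the test (adjusted p = 0.0215). One of its day 0 libraries, the WT-labelled KSR library, was itself near 0. Mael, needed in mouse for transposon silencing in the testis, read 2.91, 3.81, 0.7599 and 1.09 FPKM at day 0 and 1.68, 1.52, 0.651 and 0.302 FPKM after differentiation; the states overlapped, and the difference was −0.56 ± 0.20 (adjusted p = 0.0506).

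Tdrd7, a Tudor protein of germ granules that also acts in the lens, was the 1 gene called higher among the 32 tested. With the filter at 0.5 FPKM the higher calls numbered 2, and without a filter 3, with Tdrd1 and Sycp2 (limma adjusted p = 0.0107 and 0.0410). Msh4, also below the filter, passed as lower without it, at −0.19 (limma adjusted p = 0.0388). Tdrd1, Sycp2 and Msh4 stayed below 1 FPKM in all libraries. Shares of all genes called under these other filters are not given beside these calls, so the calls cannot be weighed against them. Tdrd7 read 0.227, 0.0639, 0.0770 and 0.0718 FPKM at day 0 and 1.84, 1.89, 3.57 and 3.25 FPKM after differentiation. It was close to 0 in stem cells and above 1 FPKM in all differentiated libraries, a rise of 1.68 ± 0.22 (adjusted p = 0.000963). Tdrd5 read 0.283, 0.145, 0.243 and 0.159 FPKM at day 0 and 1.18, 1.27, 0.413 and 0.244 FPKM after differentiation, highest in the KSR day 4 libraries, with a difference of 0.51 ± 0.22 (adjusted p = 0.0913). Tdrd1, Tdrd6, Tdrd9 and Piwil4 did not reach 1 FPKM in any library. Tdrd1 and Tdrd6 were nonetheless lower in every day 0 library than in every differentiated one, at day 0 means of 0.0971 and 0.00266 FPKM and differentiated means of 0.5196 and 0.0391 FPKM. The share of all genes this low that behaved so was not taken. Tdrd6 was near 0 throughout, at most 0.0574 FPKM, and did not pass without a filter (limma adjusted p = 0.134).

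Of the 4 genes of germ cell RNA binding and meiotic entry, 3 passed as lower, where 23.6% of all genes tested did. Dazl, an RNA-binding protein that promotes translation of germ cell transcripts, read 17.6, 32.5, 39.3 and 25.3 FPKM at day 0 and 0.611, 0.716, 0.0760 and 0.0254 FPKM after differentiation. It was among the highest genes of the list in stem cells and under 1 FPKM in every differentiated library, and it fell by 4.43 ± 0.28 (adjusted p = 5.56e-05). Stra8, induced by retinoic acid at meiotic entry, read 4.37, 5.15, 27.5 and 27.9 FPKM at day 0 and 1.18, 0.966, 0.578 and 0.163 FPKM after differentiation and fell by 2.94 ± 0.60 (adjusted p = 0.00659). Its day 0 libraries split by series, both N2B27 libraries lying above both KSR libraries.

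Stk31, a Tudor protein of male germ cells, read 4.21, 4.21, 5.34 and 2.14 FPKM at day 0 and 0.358, 0.289, 0.2598 and 0.0698 FPKM after differentiation and fell by 1.96 ± 0.19 (adjusted p = 0.000321). Ddx4, the Vasa helicase, read 2.35, 2.34, 2.297 and 1.51 FPKM at day 0 and 1.75, 1.95, 0.415 and 0.472 FPKM after differentiation. Its KSR day 4 libraries lay within the day 0 range and its N2B27 day 6 libraries below it, and the difference over all pairs was −0.61 ± 0.23 (adjusted p = 0.0578).

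Of the 2 genes of germ cell transcription, Taf7l, a testis form of a TFIID subunit, read 2.004, 3.05, 6.51 and 3.15 FPKM at day 0 and 0.565, 0.706, 0.2704 and 0.504 FPKM after differentiation and fell by 1.55 ± 0.29 (adjusted p = 0.00443). Brdt, the testis bromodomain protein, read 1.43, 3.67, 0.357 and 0.942 FPKM at day 0 and 0.382, 0.219, 0.662 and 0.507 FPKM after differentiation; the states overlapped and the difference was −0.71 ± 0.36 (adjusted p = 0.136). All 6 genes of testis enzymes, tubulins and other testis proteins passed as lower, where 23.6% of all genes tested did. Tuba3a read 93.96, 159.8, 224 and 261 FPKM at day 0 and 1.36, 1.45, 4.07 and 5.08 FPKM after differentiation. The lowest day 0 library stood far above the highest differentiated library, and Tuba3a fell by 5.57 ± 0.15 (adjusted p = 6.06e-06), the largest change of the list. Tuba3b, its near-identical copy, read 3.17, 7.68, 7.23 and 8.37 FPKM at day 0 and 0.129, 0.0919, 0 and 0.0428 FPKM after differentiation and fell by 2.77 ± 0.26 (adjusted p = 0.000253); how reads shared by these copies were assigned is not given in the sources used here, so the level of each is uncertain.

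Tex14, of the intercellular bridges of germ cells, read 6.37, 7.53, 5.38 and 4.22 FPKM at day 0 and 0.606, 0.378, 0.155 and 0.177 FPKM after differentiation and fell by 2.36 ± 0.17 (adjusted p = 0.000103). Tex101, a sperm surface protein, read 2.12, 3.55, 0.894 and 0.531 FPKM at day 0 and 0, 0.175, 0.1598 and 0 FPKM after differentiation and fell by 1.23 ± 0.28 (adjusted p = 0.0102), with its KSR day 0 libraries above its N2B27 ones. Dpep3, a testis dipeptidase, read 1.13, 1.66, 1.904 and 0.761 FPKM at day 0 and 0.0455, 0, 0 and 0 FPKM after differentiation, and Slc25a31, the ADP/ATP carrier of sperm, 1.09, 0.814, 1.15 and 1.07 FPKM at day 0 and 0.349, 0.261, 0.4503 and 0.278 FPKM after differentiation. Both were low at day 0 and lower still after differentiation. Dpep3 fell by 1.198 ± 0.20 (adjusted p = 0.00286) and Slc25a31 fell by 0.61 ± 0.17 (adjusted p = 0.0203). Calls for Asz1, Dmc1 and Slc25a31 were lost under some of the 12 alternative settings, and the other 23 of the 26 calls were made under all of them.

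The fall was seen in cells of both labels. In WT-labelled cells 20 of 32 passed as lower and 1 as higher (13.2% and 17% of all genes, 30.2% together), and in KO-labelled cells 14 and 1 (10.9% and 16.4% of all genes, 27.3% together). No gene of the list differed in its change between labels, where 0% of all genes did. By limma 0 of the 32 had an unadjusted p under 0.05, against 166 of the 15967 genes tested. The smallest adjusted p of the list was 0.999997. The largest differences of change were 0.54 for Dmc1 (95% interval −0.42 to 1.49) and −0.89 for Brdt (−2.64 to 0.85), and intervals of this width do not show that the labels act alike. With a pair left out, its label holds 1 pair, and shares of all genes are not given beside the counts that follow. Without the WT-labelled N2B27 pair, calls in WT-labelled cells numbered 8 instead of 21, all 8 of them lower, and without the WT-labelled KSR pair the lower calls numbered 13. Calls in KO-labelled cells numbered 11 without the KO-labelled KSR pair.

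Levels themselves were compared between labels over the 4 conditions. Of the 32 genes 0 passed, where 0.00626% of all genes did. An unadjusted p under 0.05 was found for 1 of the list, against 694 of the 15967 genes tested. It was Tuba3a, at 0.32 KO-labelled minus WT-labelled (95% interval 0.02 to 0.63, limma adjusted p = 0.945). Tuba3a was higher in the KO-labelled library in 4 of 4 conditions. Estimates of the 32 genes ran from −0.33 to 0.32 with a median near 0 (−0.003). At day 0 alone 3 genes had an unadjusted p under 0.05, Brdt at 0.73, Tuba3a at 0.49 and Syce2 at −0.43, with limma adjusted p-values of 0.931, 0.931 and 0.931, and after differentiation 0 had one. Among the 15967 genes tested, 739 had one at day 0 and 695 after differentiation. Of the list 0 genes passed in either state, where 0.00626% of all genes did.

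Most of the list was lower after differentiation than at day 0 in both media. In KSR 25 genes passed as lower and 2, Tdrd7 and Tdrd5, as higher (19.4% and 27.6% of all genes, 47.1% together), and in N2B27 26 as lower and 1, Tdrd7, as higher (25.7% and 29.1% of all genes, 54.9% together). In both media 23 were called in the same direction, as were 36.3% of all genes. Brdt, Mael, Sycp1 and Tdrd5 passed in KSR and not in N2B27 (4 of 32, against 10.2% of all genes), and Asz1, Ddx4, Rec8 and Slc25a31 in N2B27 and not in KSR (4 of 32, against 18% of all genes). None of these 8 passed the test of the difference between media, with limma adjusted p-values from 0.161 for Rec8 to 0.927 for Slc25a31. Rec8 kept 104% of its day 0 mean in KSR and 53.1% in N2B27, Ddx4 78.7% and 23.3%, and Brdt 11.8% and 90.1%. Dazl kept 2.65% and 0.157%, and Syce1 10.6% and 0.507%, with means under 1 FPKM after differentiation. The residue of Dazl and Syce1 was thus smaller in N2B27 at day 6 than in KSR at day 4. Other genes had the opposite order, such as Stag3 at 9.28% and 19.9% and Smc1b at 7.21% and 23.8%. Such shares also depend on the day 0 level, which differed between series for some genes. Smc1b means after differentiation were 0.488 FPKM in KSR and 0.481 FPKM in N2B27, from day 0 means of 6.77 and 2.02 FPKM. For Brdt these means were 0.301 and 0.585 FPKM, from 2.55 and 0.650 FPKM. Calls in KSR numbered 16 without the KO-labelled KSR pair, and lower calls in N2B27 numbered 17 without the WT-labelled N2B27 pair. With a pair left out, its medium holds 1 pair, and shares of all genes are not given beside these counts. Medium and day change together in this design and cannot be told apart.

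**Figure D3:**
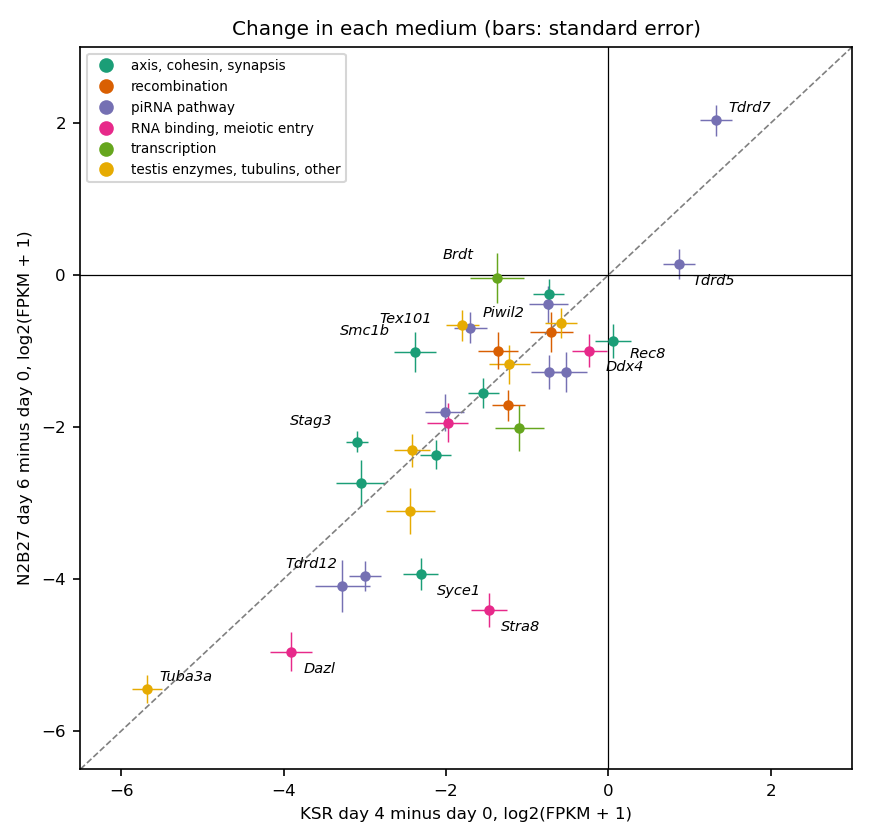
Change of the 32 tested germline genes in KSR at day 4 (x axis) against N2B27 at day 6 (y axis), each as a difference in log2 of FPKM plus 1 from the day 0 libraries of its series (points, fitted values over 2 pairs; bars, standard error; dashed, equal change). Stra8 lies farthest below the diagonal, at −1.47 in KSR and −4.41 in N2B27, and Rec8 and Ddx4 lie near 0 in KSR.

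The difference between media was itself tested, and 1 gene of the 32 passed, Stra8, where 1.46% of all genes did, 0.77% with a lower and 0.689% with a higher value in N2B27. Its fall was deeper in N2B27, at −4.41 ± 0.22 against −1.47 ± 0.22 in KSR, a difference of −2.93 ± 0.31 (limma adjusted p = 0.0252). The call was made under 6 of 12 alternative settings, with adjusted p-values from 0.00506 to 0.194, and was not made when any 1 of the 4 pairs was left out. A further 12 genes had an unadjusted p under 0.05, where 3710 of the 15967 genes tested had one. Dazl, Ddx4, Rec8, Syce1, Tdrd12 and Tdrd5 were more negative in N2B27, and Brdt, Piwil2, Smc1b, Stag3, Tdrd7 and Tex101 more positive. Their limma adjusted p-values ran from 0.0589 for Syce1 to 0.212 for Ddx4.

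The series also differed at day 0, where both were in stem cell medium. After the values were seen, the day 0 conditions of the series were compared in a fit of all 8 libraries. That fit held each condition and 1 common difference between labels, so its spread comes in part from the differentiated libraries. Here 3 of the 32 genes passed, 1 as higher and 2 as lower in the N2B27 series (1.34% and 0.726% of all genes, 2.07% together). Stra8 read 4.37 and 5.15 FPKM in the KSR series and 27.5 and 27.9 FPKM in the N2B27 series, a difference of 2.32 ± 0.21 (limma adjusted p = 0.0120), with its labels close to each other within a series. Piwil2, at 3.99 and 3.51 FPKM in the KSR series and 0.969 and 0.688 FPKM in the N2B27 series, differed by −1.38 ± 0.19 (limma adjusted p = 0.0297), and Smc1b, at 6.32 and 7.22 FPKM in the KSR series and 2.57 and 1.46 FPKM in the N2B27 series, by −1.39 ± 0.25 (limma adjusted p = 0.0466).

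Just past the threshold stood Tuba3a at 0.97 (0.0511) and Mael at −1.18 (0.0565), in limma adjusted p. None of the 3 calls was made when any 1 day 0 library was left out, which leaves 1 library on a side. In the same libraries Dppa3, a gene of naive cells and germ cells, read 0.990 and 1.91 FPKM in the KSR and 15.5 and 9.64 FPKM in the N2B27 series (limma adjusted p = 0.0241). Tet1, a demethylation enzyme, read 76.8 and 85.2 against 28.4 and 53.7 FPKM and did not pass (limma adjusted p = 0.0561). Dppa3 and Tet1 were chosen after their values were seen, and their part in the result was not tested. Dppa3 was the 1 gene that passed among 7 naive markers (median difference −0.05) and among 5 factors of demethylation (median 0.04). Of 25 known repressors of germline promoters 0 passed (median 0.03), where 2.07% of all genes did.

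**Figure D4:**
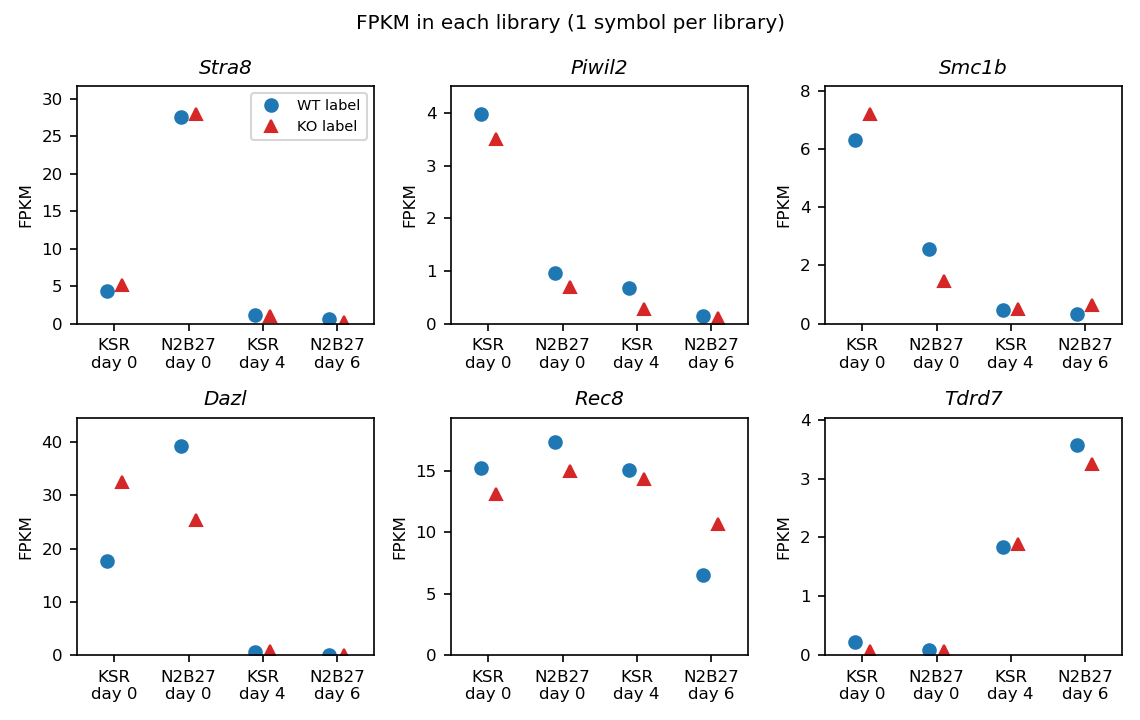
FPKM of Stra8, Piwil2, Smc1b, Dazl, Rec8 and Tdrd7 in each of the 8 libraries (y axis, FPKM; x axis, series and day; 1 symbol per library, circles WT-labelled, triangles KO-labelled). At day 0 Stra8 is at 4.37 and 5.15 FPKM in the KSR series and at 27.5 and 27.9 FPKM in the N2B27 series, whereas Piwil2 and Smc1b show the opposite order.

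Other germline genes, 50 symbols outside the list, were described the same way: of 33 tested, 22 passed as lower and 3 as higher, against 23.6% and 30.4% of all genes, with a median of −1.33. Without the KO-labelled KSR pair 21 passed as lower and 3 as higher, against 20.4% and 25.8% of all genes. Tcl1, Zfp42 and Dppa5a, which are known as stem cell genes too, had the largest changes among those lower. Tcl1 fell by 5.99 ± 0.16 (adjusted p = 6.06e-06), Zfp42 fell by 5.74 ± 0.30 (adjusted p = 2.96e-05) and Dppa5a fell by 5.29 ± 0.26 (adjusted p = 2.32e-05). Tdrkh, which holds PIWI proteins at mitochondria, rose by 2.73 ± 0.44 (adjusted p = 0.00253), Ddx25, a testis helicase, by 1.06 ± 0.18 (adjusted p = 0.00317), and Prdm9, which places recombination hotspots, by 0.78 ± 0.26 (adjusted p = 0.0423). Prdm9 stood at 0.548 to 1.39 FPKM at day 0 and 1.79 to 3.75 FPKM after differentiation.

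Genes for the known repressors of germline promoters, 25 in all, had calls both ways: 8 passed as lower, 8 as higher and 9 did not pass, with a median of −0.06. These counts lie near the shares of all genes tested (23.6% lower and 30.4% higher). Without the KO-labelled KSR pair the counts were 9 and 8, against 20.4% and 25.8% of all genes. Wdr5, Rybp and L3mbtl2, which belong to the Polycomb complex that carries MGA, were among those lower. Wdr5 fell by 1.62 ± 0.12 (adjusted p = 0.000104), Rybp fell by 0.94 ± 0.21 (adjusted p = 0.0101) and L3mbtl2 fell by 0.83 ± 0.14 (adjusted p = 0.00345), whereas Yaf2 rose by 2.23 ± 0.15 (adjusted p = 6.64e-05) and Ring1, a core Polycomb subunit, rose by 1.68 ± 0.14 (adjusted p = 0.000192). Dnmt3a, a DNA methyltransferase, read 6.55 to 9.54 FPKM at day 0 and 32.4 to 63.6 FPKM after differentiation, a rise of 2.42 ± 0.19 (adjusted p = 0.000130). Of 5 factors of demethylation, 4 passed as lower and 1 as higher, against 23.6% and 30.4% of all genes. Without the KO-labelled KSR pair the counts were also 4 and 1, against 20.4% and 25.8% of all genes. Prdm14, which keeps methylation low in stem cells and germ cells, went from 18.0 to 20.2 FPKM down to 0.0563 to 0.242 FPKM, Tet1 fell by 2.64 ± 0.15 (adjusted p = 3.64e-05), Tet2 fell by 2.45 ± 0.34 (adjusted p = 0.00139), and Tdg, a repair glycosylase, rose by 0.71 ± 0.15 (adjusted p = 0.00691).

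Markers of cells that carry this programme in the body were read to see which cells the cultures might hold. The 7 markers of primordial germ cells, 1 of which (Ddx4) is also in the list, summed to 149 to 177 FPKM at day 0 and 13.5 to 22.4 FPKM after differentiation. Kit, Tfap2c and Prdm14, which stem cells also express, held most of that sum, and Nanos3, which defines these cells more narrowly, read 0.165 to 2.71 FPKM at day 0. On differentiation 4 of these 7 markers passed as lower and 0 as higher, against 23.6% and 30.4% of all genes. Without the KO-labelled KSR pair the counts were 5 and 0, against 20.4% and 25.8% of all genes. Of 8 markers of spermatogonia and spermatocytes 6 stayed below 1 FPKM in all libraries, and Sohlh1, Prm2 and Tnp1 were listed at 0 in all of them; Zbtb16 and Ddx25, the 2 above 1 FPKM, were highest in differentiated cells. Of 7 oocyte markers 6 stayed below 1 FPKM; the other, Zp3, a coat protein of the egg, read 1.98 to 6.10 FPKM at day 0 and 0 to 0.466 FPKM after differentiation and fell by 1.84 ± 0.29 (limma adjusted p = 0.00232). Differentiated libraries also held endoderm markers, summing to 19.9 to 126 FPKM with the top value in the WT-labelled N2B27 library, against 0.985 to 2.45 FPKM at day 0, and their part in the levels of the germline genes was not tested.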

How the data were processed

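The authors deposited 1 table of FPKM for 55188 entries named by gene symbol in 8 libraries. The submitters' processing notes name STAR, Cufflinks and the build mm10. Their versions and settings for strand are not given in the sources here. Libraries were grouped by their titles. In 4 cases title and description disagree, and the title was followed. The columns of the KO-labelled KSR pair were placed by the knockout and day in their names, and the column of the WT-labelled N2B27 day 6 library is named day 7.

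The 110 repeated symbols were joined by summing, which left 55078. The 15967 genes that reached an FPKM of 1 in 2 or more libraries entered the tests, as log2 values after a pseudocount of 1, in limma 3.58.1 (R 4.3.3) with an eBayes trend. P-values were adjusted by the Benjamini-Hochberg method over all genes tested, with a threshold of 0.05, and intervals are at 95%. For differentiation each pair of a day 0 and a differentiated library of the same label and series was a block, which left 3 residual degrees of freedom (2 where the change was fitted by label or by medium); for labels each condition was a block. The series at day 0 were compared in the fit of labels over all 8 libraries. The pairs come from the titles. Deviations of paired libraries from their state means correlated at 0.0114 to 0.104 over genes, and those of other libraries at −0.0816 to 0.0523. The fits were tested on simulated data.

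A test of counts had been planned and could not be run on FPKM. Whole reads were not recovered from the FPKM. The members, lists, motifs and tests were chosen with earlier results of these data known, and the comparison of series at day 0 after its values were seen. All 32 genes above the filter were named with their values in each library, since each reached 5 FPKM or passed a test; of the lists of other germline genes, repressors and demethylation factors, genes with the 3 largest calls in either direction were named. Marker genes and the other genes outside this rule were chosen after their values were seen. Coordinates come from GENCODE M21 (overlaps) and RefSeq GRCm38.p6 (promoters). Pseudocounts, filters, scaling, eBayes settings, the block and left-out pairs were varied. Python 3.11.15 with pandas 2.3.3, numpy 2.4.6 and matplotlib 3.10.9 was used for tables and figures.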

Additional observations from a re-analysis of the deposited data

Results flagged for a closer look

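Stra8 is listed because its change on differentiation differed between the media in the test of that difference itself. The change in N2B27 minus the change in KSR was −2.93 ± 0.31 on the scale of log2 of FPKM plus 1 (limma, adjusted p = 0.0252), and it was negative for cells of both labels. Stra8 read 4.37 and 5.15 FPKM in the KSR and 27.5 and 27.9 FPKM in the N2B27 day 0 libraries, and 0.966 and 1.18 FPKM at KSR day 4 and 0.163 and 0.578 FPKM at N2B27 day 6. The call was lost when any 1 of the 4 pairs was left out (limma adjusted p = 0.0847 to 0.148). At day 0, with both series in stem cell medium, the N2B27 libraries were already higher by 2.32 ± 0.21 on this scale.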

How the results depend on the processing

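For differentiation over all pairs, calls numbered 26, between 23 and 25 with each pair left out and 27 with no replicate block, and no result reversed under any alternative. Calls in WT-labelled cells numbered 10 without a filter on low values and 8 to 20 with a pair left out, those in KO-labelled cells 11 to 17, those in KSR 16 to 29 and those in N2B27 18 to 24. The 1 call between media became 0 without the filter, 0 to 0 with a pair left out and 2 with no replicate block. The 3 calls between series at day 0 became 0 without the filter, 1 with a pseudocount of 0.1 and 0 to 2 with a library or condition left out. Calls between labels stayed at 0 in these alternatives. A pair left out leaves fewer samples, and calls over all genes were not set beside these counts. Otherwise the cause was not tested. Stra8, Piwil2 and Smc1b passed between series at day 0 under 8, 6 and 2 of 13 alternatives. In a shorter promoter window of 150 bases before to 50 after the start, the E-box stood in 31.4% and the E2F6 core in 42.9% of promoters of the list. The test of counts was not run, as the values are FPKM. The absolute depth is unknown, so no floor can be set for genes listed at 0.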
